A study of Danio rerio with 6 samples.

Results

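The transcripts described here are those of structural noncoding RNAs, RNAs that work as parts of ribonucleoprotein machines and are not translated. They were chosen by name from the deposited lists of differentially expressed transcripts. A transcript was taken when its gene name was that of the signal recognition particle RNA (Metazoa_SRP), of the RNA of nuclear RNase P (RNaseP_nuc) or RNase MRP (RNase_MRP), of 7SK, of 5S or 5.8S ribosomal RNA, of a U-series RNA of the spliceosome or nucleolus, or of a small nucleolar RNA (SNOR). This gave 21 of the 54869 transcripts that were counted: 10 copies named Metazoa_SRP, 2 each of U1 and U3, and 1 each of RNaseP_nuc, RNase_MRP, U8, SNORA16, SNORD15, SNORD65 and 5S_rRNA. All 21 came from the DESeq list and 0 from the Cuffdiff list. The paper defines a gene as differentially expressed only when both methods call it, which by these lists holds for 0 of the members. Since the DESeq list holds transcripts called different between the genotypes, that difference is part of how the members were chosen. It is given below as a description. Counts of members past a threshold on this contrast follow from that choice and are no test of it. The names could be set against a second source for 4 of the 21 gene identifiers, which a table of zebrafish gene symbols names snord118a (for U8), rmrp (for RNase_MRP) and U1 (for both U1 copies).

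RNA of whole zebrafish embryos at 4 dpf (days post fertilization) was sequenced from 3 flt1ka601 samples and 3 wild-type (WT) samples. The flt1ka601 fish were homozygous for flt1ka601, an allele of 1 deleted nucleotide made with CRISPR/Cas in exon 3 of flt1, the gene of a decoy receptor for Vegf, and carried it in every tissue. WT fish were of the AB strain, the labels name no strain for the mutants, and both genotypes carried Tg(kdrl:eGFP)s843, a reporter driven by an endothelial promoter. An effect of genotype and one of strain background cannot be told apart in these samples. In RNA of whole animals, fewer cells that make an RNA and less of that RNA per cell also cannot be told apart.

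The RNAs fall into a few machines. The signal recognition particle RNA is the scaffold of the complex that docks ribosomes making secreted and membrane proteins at the endoplasmic reticulum. RNase P RNA is the catalytic part of the enzyme that trims the front end of precursor transfer RNAs, and RNase MRP RNA belongs to a related enzyme that cuts precursor ribosomal RNA in the nucleolus. U1 marks the start of introns for the spliceosome. U3 and U8 are box C/D RNAs of the nucleolus that are needed for cutting precursor ribosomal RNA, while most other box C/D RNAs (SNORD) guide methylation of the ribose and H/ACA RNAs (SNORA) guide formation of pseudouridine. 5S RNA is part of the large ribosomal subunit. In vertebrate cells U1, U3 and U8 are made by RNA polymerase II, and the signal recognition particle RNA, RNase P RNA, RNase MRP RNA and 5S RNA by RNA polymerase III.

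The reads counted on transcripts numbered 10655504 to 13358468 in flt1ka601 samples and 10792845 to 14936523 in WT samples. The members took 0.109% to 0.117% of the counted reads in flt1ka601 samples and 0.166% to 0.246% in WT samples. The members were chosen on this contrast, so a difference in these shares comes with the choice. RNase_MRP alone held 7398 of the 29555 member reads in WT replicate 1 and 9254 of 27638 in WT replicate 2. In WT replicate 3 it held 7 of 17907. Only reads with a single position in the genome entered a count. Vertebrate genomes hold many near-identical copies of such RNAs, so a copy's count rests on the reads that fit it alone, and reads shared between copies are in no count. Reads with a single position that overlapped several transcripts were left out too. They were 22.4% to 22.7% of single-position reads in flt1ka601 samples and 20.0% to 23.1% in WT samples, lowest in WT replicate 1. How many of them came from structural RNAs was not tested. HTSeq reported 2.85 to 2.93 alignments with several positions per counted read in flt1ka601 samples and 2.88 to 3.52 in WT samples, with the highest value in WT replicate 1. Levels below are in CPM, counts brought to a common library size, with TMM factors that adjust each sample for its composition. Transcript lengths were not given, so levels are compared between samples and not between RNAs.

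Of the 21 members, 7 were higher and 14 lower in flt1ka601 embryos by their mean CPM. The 7 higher members were the U3 pair, U8, SNORD15, SNORD65, SNORA16 and the 5S_rRNA transcript. The 14 lower members were all 10 Metazoa_SRP copies, both U1 copies, RNaseP_nuc and RNase_MRP. In 20 of the 21, every flt1ka601 sample was on one side of every WT sample, where 32.6% of all 21029 transcripts that passed the filter on low counts showed no overlap. RNase_MRP was the exception. The edgeR fit over those transcripts held 20 of the members. Since the DESeq list was made from the same counts with a like threshold, the choice of members largely fixed that all 20 would be past an adjusted p of 0.05 in this fit, 7 higher and 13 lower, where 9.76% of all transcripts were, 5.44% higher and 4.31% lower. The same holds for a change of at least 2-fold, which all 20 had, where 1.26% of all transcripts were called higher and 0.884% lower by at least that much. Nothing is read from these counts. The median log2 fold change was 1.40 for the 7 higher members and -1.37 for the 13 lower ones, against -0.0051 over all transcripts fitted. Members were chosen for a 2-fold change and split here by its sign, so this distance too follows from the choice. The authors' lists ask for a 2-fold change, and the members closest to it were SNORD65, with a mean 2.08-fold higher in flt1ka601, and the Metazoa_SRP copy ENSDART00000121583, with a mean 2.04-fold higher in WT. Transcripts just outside that limit are not in the lists and were not analysed here.

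**Figure D1:**
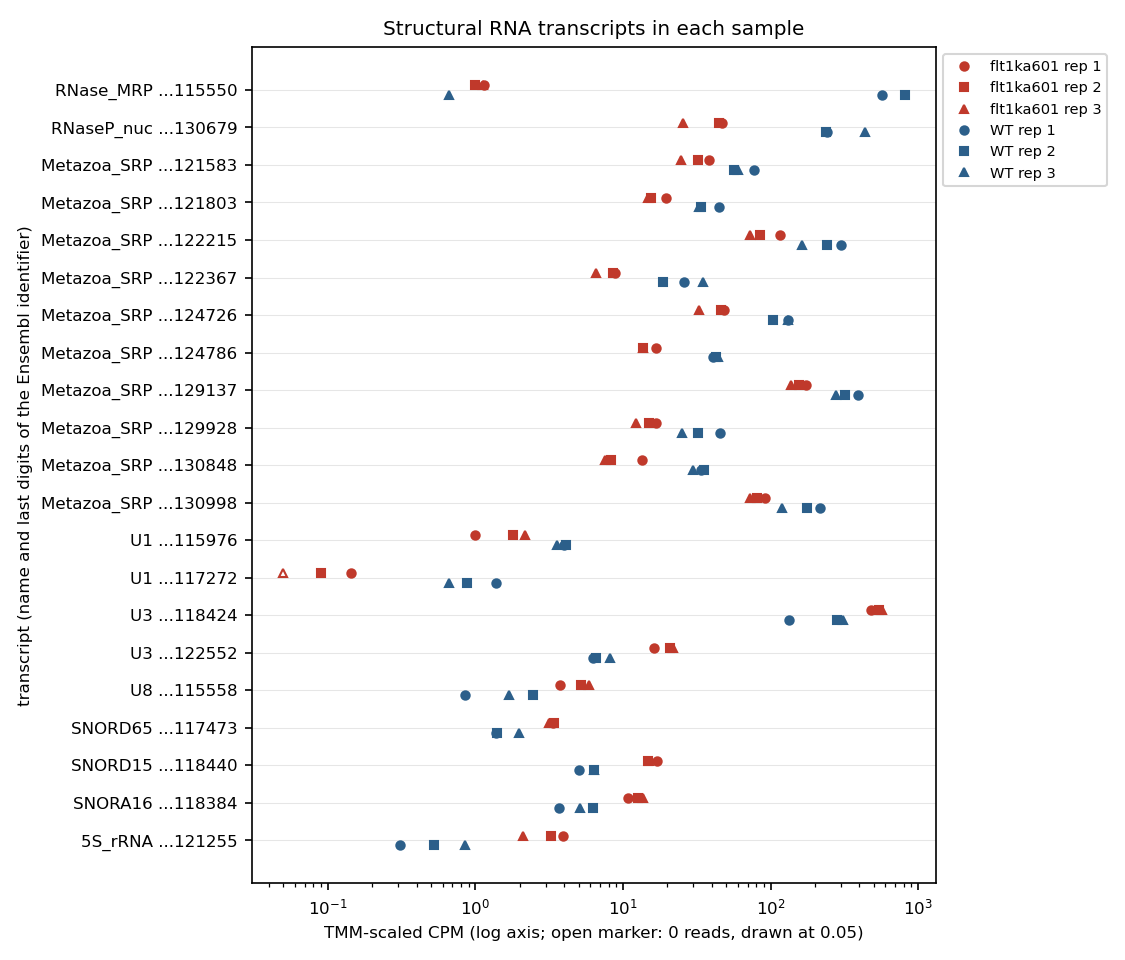
TMM-scaled CPM (log axis) of the 21 structural RNA transcripts, 1 row each, in 3 flt1ka601 samples (red, upper marks) and 3 WT samples (blue, lower marks), with the replicate number as the marker shape. The genotypes are apart in 20 rows, and in the RNase_MRP row WT replicate 3 lies with the mutants at 0.662 CPM.

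RNase MRP RNA had the largest difference in means, and its samples did not separate by genotype. ENSDART00000115550 had 16, 11 and 13 reads in flt1ka601 samples, against 7398, 9254 and 7 in WT replicates 1, 2 and 3. These were 1.15, 0.990 and 1.13 CPM in flt1ka601 samples and 569, 811 and 0.662 CPM in the WT samples in the same order. WT replicate 3 was thus below every mutant, and the other WT samples were at least 859-fold above it. The means were 1.09 ± 0.0862 CPM in flt1ka601 and 460.1 ± 416 CPM in WT (SD, n = 3 each), so the WT spread was nearly as large as the WT mean. On the log2 scale the difference was -8.70 (standard error 1.68). It was -9.29 without WT replicate 3 and ran from -9.29 to -8.02 when any 1 of the 6 samples was left out. Each of those fits kept a high WT sample, so none could turn the direction. Among 21029 transcripts, RNase_MRP was the only one with WT replicates 1 and 2 both at least 100-fold above the other 4 samples, and 29 transcripts had them at least 2-fold above.

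A transcript without a name in the files showed the reverse among the WT samples. ENSDART00000119007, set beside RNase_MRP after its values were seen, had 24, 13 and 10 reads in flt1ka601 samples, against 36, 25 and 6491 in WT replicates 1, 2 and 3. It was the only transcript with WT replicate 3 at least 100-fold above the other 5 samples, and 36 had it at least 2-fold above. Added together, the counts of both transcripts were 40, 24 and 23 in flt1ka601 samples and 7434, 9279 and 6498 in WT samples. The unnamed transcript was picked for being high in WT replicate 3 and low in the mutants. That these sums do not overlap follows from this choice and says nothing about RNase MRP RNA. The files give neither a name nor a position for ENSDART00000119007, and whether it is related to RNase MRP RNA was not tested.

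**Figure D2:**
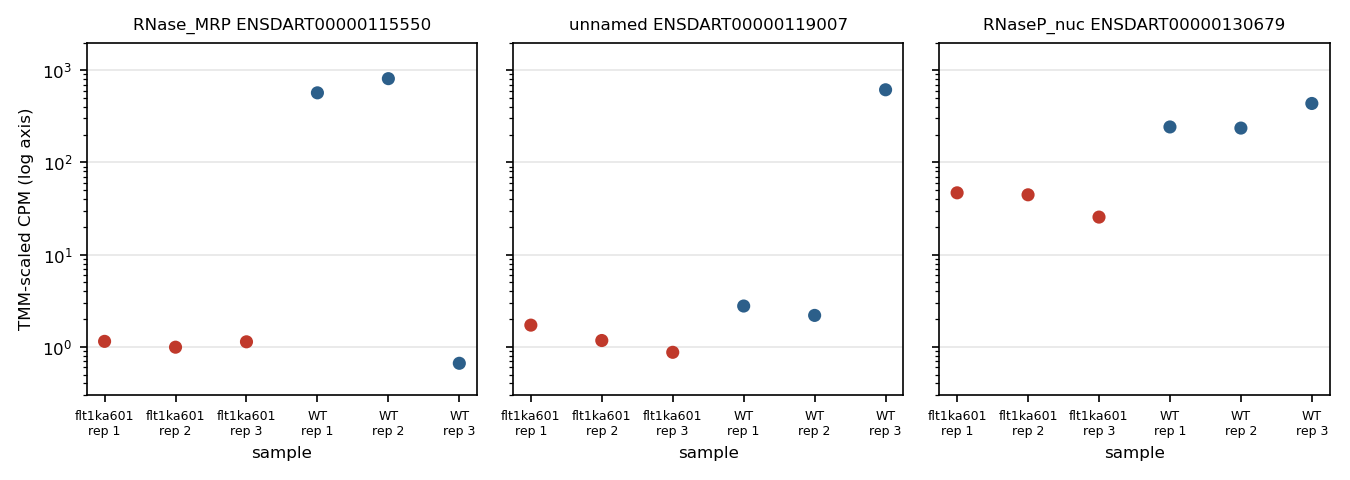
TMM-scaled CPM (log axis) in each sample of RNase_MRP, of the unnamed ENSDART00000119007 and of RNaseP_nuc, with flt1ka601 samples in red and WT samples in blue. RNase_MRP is high in WT replicates 1 and 2 (569 and 811 CPM), the unnamed transcript in WT replicate 3 (614 CPM), and RNaseP_nuc in all 3 WT samples (236 to 436 CPM).

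**Figure D3:**
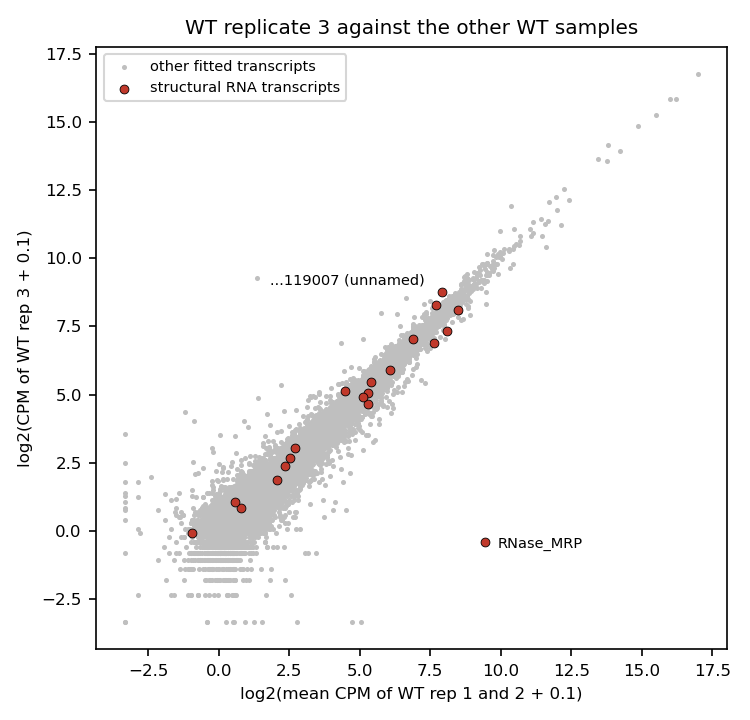
Level of each of the 21029 fitted transcripts in WT replicate 3 (vertical) against the mean of WT replicates 1 and 2 (horizontal), both as log2 of CPM plus 0.1, with the 20 fitted structural RNA transcripts in red. RNase_MRP lies far below the diagonal and ENSDART00000119007 far above it, and the other red points lie near the diagonal.

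The listed transcript of RNase P RNA was lower in every mutant. The RNaseP_nuc transcript ENSDART00000130679 had 654, 495 and 293 reads in flt1ka601 samples, against 3155, 2692 and 4610 in WT samples. In CPM these were 46.8, 44.5 and 25.5 in flt1ka601 samples and 243, 236 and 436 in WT samples. The lowest WT sample stood 5.04-fold above the highest mutant, the widest gap between genotypes among the 20 members without overlap. The means were 39.0 ± 11.7 CPM in flt1ka601 and 304.8 ± 114 CPM in WT (SD, n = 3 each), 7.83-fold higher in WT. WT replicate 3 was 1.80-fold above the next WT sample. The log2 fold change was -2.96 (standard error 0.27), and -2.62 when WT replicate 3 was left out. WT replicate 3 was the highest WT sample, so leaving it out could not close the gap, and the kept separation is no test.

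The 10 Metazoa_SRP copies in the lists were all lower in flt1ka601 embryos, and all without overlap between genotypes. Their summed level was 543, 462 and 395 CPM in flt1ka601 samples, against 1306, 1064 and 919 CPM in WT samples. The sums averaged 467 ± 74.1 CPM in flt1ka601 and 1096 ± 195 CPM in WT (SD, n = 3 each), 2.35-fold higher in WT. The files give the copies 1 name and no sequence. The copies come from the same libraries and are not independent replicates of one another. Across copies the WT mean was 2.04-fold to 3.37-fold the flt1ka601 mean, and the log2 fold changes ran from -1.74 to -1.03.

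The copy with the most reads, ENSDART00000129137, had 2424, 1729 and 1576 reads in flt1ka601 samples, against 5060, 3663 and 2941 in WT samples. It averaged 155 ± 18.1 CPM in flt1ka601 and 329 ± 55.9 CPM in WT, a log2 fold change of -1.08 (standard error 0.13). ENSDART00000124786 varied least between WT samples, with 235, 153 and 156 reads in flt1ka601 samples and 528, 489 and 469 in WT samples. Its means were 14.7 ± 1.81 CPM in flt1ka601 and 42.6 ± 1.90 CPM in WT (SD, n = 3 each), which on the log2 scale was a difference of -1.53 (standard error 0.10). The log2 fold change was largest in size for ENSDART00000130848, at -1.74 (standard error 0.18). That copy had 187, 92 and 87 reads in flt1ka601 samples, against 436, 403 and 315 in WT samples. The narrowest gap was that of ENSDART00000130998, whose WT replicate 3, at 120 CPM, stood 1.30-fold above the highest mutant, at 92.2 CPM.

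Within each genotype the copies moved unevenly among WT samples and together among mutants. All 10 copies were highest in flt1ka601 replicate 1 and lowest in flt1ka601 replicate 3, an order of the mutant samples that 19.3% of all 21029 transcripts showed. The level in replicate 3 was between 0.566 and 0.808 times that in replicate 1. RNaseP_nuc and the 5S_rRNA transcript had the same order of mutant samples, while U8, SNORA16, both U3 transcripts and the U1 transcript ENSDART00000115976 had their lowest mutant level in replicate 1 and their highest in replicate 3. Among WT samples, 6 of the copies were highest in replicate 1, 1 in replicate 2 and 3 in replicate 3. Relative to the mean of the other WT samples, WT replicate 3 ranged from 0.599 for ENSDART00000122215 to 1.56 for ENSDART00000122367. ENSDART00000122367 had 124, 95 and 75 reads in flt1ka601 samples, against 338, 214 and 368 in WT samples, with replicate 3 the highest. Without WT replicate 3 the log2 fold changes of the copies lay between -1.80 and -1.07, and without WT replicate 1 between -1.74 and -0.86.

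**Figure D4:**
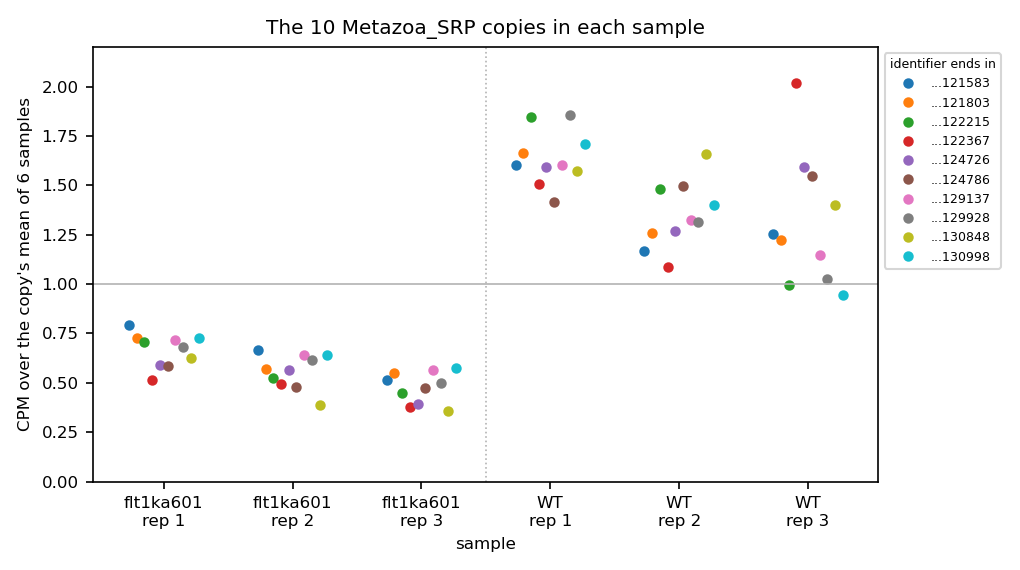
Level of each of the 10 Metazoa_SRP copies (colours) in each sample, as CPM divided by that copy's mean over the 6 samples, with the flt1ka601 samples left of the WT samples. Every copy lies below its mean of 1 in all 3 mutants, and the copies spread most in WT replicate 3.

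Both U1 transcripts in the lists were lower in flt1ka601 embryos and stood on few reads. ENSDART00000115976 had 14, 20 and 25 reads in flt1ka601 samples, against 52, 47 and 38 in WT samples. Its means were 1.66 ± 0.60 CPM in flt1ka601 and 3.90 ± 0.274 CPM in WT (SD, n = 3 each). The log2 fold change was -1.26 (standard error 0.27). The lowest WT sample was 1.65-fold above the highest mutant. ENSDART00000117272 had 2, 1 and 0 reads in flt1ka601 samples, against 18, 10 and 7 in WT samples, and it was the 1 member under the filter on low counts. Its summed level was 12.2 times higher in WT, with a 95% exact interval from 3.84 to 62.0 that covers counting error only. No U2, U4, U5 or U6 transcript is in the lists, and other parts of the spliceosome's RNA were not analysed here.

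Both U3 transcripts in the lists were higher in flt1ka601 embryos. ENSDART00000118424 had 6649, 6043 and 6516 reads in flt1ka601 samples, against 1722, 3225 and 3271 in WT samples. In CPM these were 476, 544 and 568 in flt1ka601 samples and 132, 283 and 309 in WT samples. The mutants lay close together, and among the WT samples replicate 1 stood apart at 2.13-fold below the next. The mean was 529 ± 47.6 CPM in flt1ka601 and 241 ± 95.4 CPM in WT (SD, n = 3 each). On the log2 scale this was a difference of 1.13 (standard error 0.24). Without WT replicate 1 the log2 fold change was 0.84, under the 2-fold change of the authors' lists. The second U3 transcript, ENSDART00000122552, had 228, 232 and 249 reads in flt1ka601 samples and 81, 75 and 86 in WT samples. Its log2 fold change was 1.49 (standard error 0.15) and stayed between 1.41 and 1.61 when any 1 sample was left out.

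U8, which in vertebrates is needed for processing the RNAs of the large ribosomal subunit, was also higher in flt1ka601 embryos in its listed transcript. ENSDART00000115558 had 52, 58 and 68 reads in flt1ka601 samples, against 11, 28 and 18 in WT samples. Its level was 4.95 ± 1.12 CPM in flt1ka601 and 1.67 ± 0.804 CPM in WT (SD, n = 3 each). The log2 fold change was 1.58 (standard error 0.33). WT replicate 1 was again the lowest, at 0.846 CPM, 2.01-fold below the next WT sample, and without it the log2 fold change was 1.23.

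The guide RNAs that the lists name, of both kinds, were higher in flt1ka601 embryos. Other guide RNAs are not in the lists and were not analysed here. SNORD15 (ENSDART00000118440), of the box C/D kind, had 236, 163 and 171 reads in flt1ka601 samples, against 65, 73 and 67 in WT samples. It averaged 15.5 ± 1.22 CPM in flt1ka601 and 5.91 ± 0.791 CPM in WT (SD, n = 3 each). The difference was 1.40 on the log2 scale (standard error 0.14), and the lowest mutant stood 2.29-fold above the highest WT sample. SNORD65 (ENSDART00000117473), also of the box C/D kind, had 47, 38 and 36 reads in flt1ka601 samples and 18, 16 and 21 in WT samples. Its log2 fold change was 1.06 (standard error 0.23), and 0.97 without WT replicate 1. SNORA16 (ENSDART00000118384), of the H/ACA kind, had 151, 140 and 156 reads in flt1ka601 samples and 48, 72 and 54 in WT samples. It averaged 12.3 ± 1.41 CPM in flt1ka601 and 5.04 ± 1.31 CPM in WT, a log2 fold change of 1.30 (standard error 0.19).

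The 5S_rRNA transcript ENSDART00000121255 had the highest fold change of the higher members, on few WT reads. It had 55, 36 and 24 reads in flt1ka601 samples, against 4, 6 and 9 in WT samples. Its level was 3.09 ± 0.932 CPM in flt1ka601 and 0.562 ± 0.274 CPM in WT (SD, n = 3 each), 5.50-fold higher in flt1ka601. On the log2 scale this was 2.49 (standard error 0.38). Leaving out any 1 sample gave values between 2.17 and 2.90. Ribosomal RNA was removed from all samples with a RiboMinus kit before the libraries were made, a step that the paper's methods do not name. How far it took 5S RNA out of each sample was not tested. The paper names TRIzol and an RNeasy mini kit for the RNA, and a TruSeq RNA kit for the libraries. How much of each structural RNA these steps kept, and how evenly across samples, was not tested. The levels given here are those in the libraries and may not be those in the animal.

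**Figure D5:**
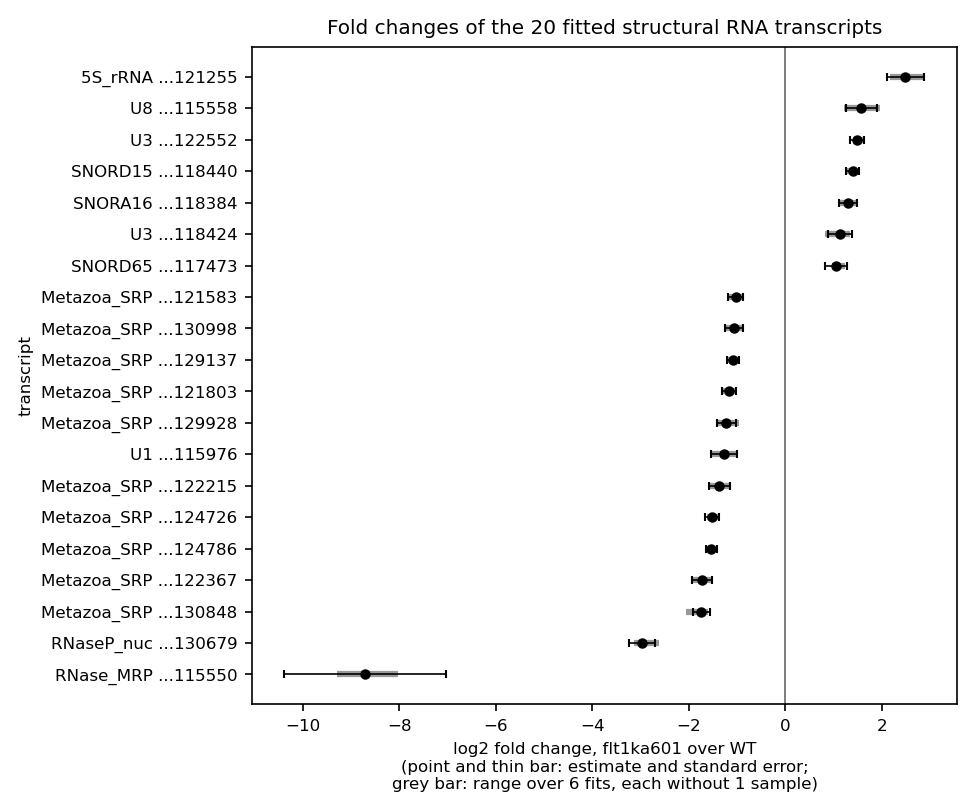
Log2 fold change of flt1ka601 over WT for the 20 structural RNA transcripts in the fit (points), with the standard error (thin bars) and the range when any 1 of the 6 samples was left out (grey bars). All 20 keep their direction, from -8.70 for RNase_MRP to 2.49 for the 5S_rRNA transcript. For RNase_MRP this could not be otherwise, since every fit without 1 sample keeps a high WT sample. For the others it could hardly be otherwise, since their genotypes do not overlap, so the kept direction is no test.

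How far 1 WT sample stood from the others is given here as a description. In 0 of the 21 members was the highest WT sample 2-fold or more above the next. Over all 21029 transcripts 1.68% showed this, a share so low that 0 of 21 is no result about the members. Members were chosen for a call between genotypes, which also bears on how far their WT samples can spread. The largest such ratio was 1.80, for RNaseP_nuc in WT replicate 3. A single low WT sample was found in 3 members, where 3.38% of all transcripts had their lowest WT sample 2-fold or more below the next. These were RNase_MRP, with WT replicate 3 at 859-fold below the next, and U3 ENSDART00000118424 and U8, both with WT replicate 1 low. All 7 members that were higher in flt1ka601 had their lowest WT level in replicate 1. WT replicate 1 was the lowest WT sample in 33.8% of all 21029 transcripts, and in 87 of the 264 that were called higher with at least a 2-fold change. This sample also had the lowest TMM factor, 0.874 against 0.983 to 1.05 in the others. Its place below the other WT samples in these 7 members was the same under 4 other scalings. In some the distance was small: WT replicates 1 and 2 had 1.38 and 1.40 CPM for SNORD65. For U3 ENSDART00000122552 they had 6.23 and 6.57 CPM. These members were chosen for being lower in WT, so the order is given as a description.

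Proteins that these RNAs bind or work with could be followed only where the lists name them. Of 76 genes of such proteins looked for by name, 2 are in the lists, snrpd1 and SNRPG, both of the Sm ring that coats spliceosomal RNAs. The lists name 424 of the 54869 transcripts counted. They name none of the 8 proteins of the signal recognition particle and its receptor or of the 11 of RNase P and MRP. Nor do they name any of the 8 around 7SK, the 12 of small nucleolar particles or the 5 of the integrator complex. The counts of all these were not analysed here. The snrpd1 transcript ENSDART00000013217 had 92, 60 and 75 reads in flt1ka601 samples, against 36, 35 and 35 in WT samples, a log2 fold change of 1.02 (standard error 0.18). The SNRPG transcript ENSDART00000150308 had 55, 25 and 29 reads in flt1ka601 samples, against 1, 0 and 1 in WT samples. Its summed level was 52.2 times higher in flt1ka601, with a 95% exact interval from 14.1 to 436 for counting error. A transcript named CABZ01067657.1 and described in the lists as similar to nucleolar protein 58, a core protein of box C/D particles, had 0 reads in every flt1ka601 sample and 24, 33 and 14 in WT samples. It was at least 24.7-fold lower in flt1ka601, counted against a floor of 3 reads over the 3 mutants, and was named after its values were seen. These proteins too are named only because they differed, so they do not speak for their lists.

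Transcripts with a like pattern over the 6 samples were sought among the 14272 transcripts that averaged 50 reads or more per sample, by Pearson's r of log2 CPM. The 3 nearest to RNase_MRP were ENSDART00000133496, ENSDART00000064514 and BX324132.5, with r between 0.992 and 0.998. ENSDART00000064514 had 25, 17 and 18 reads in flt1ka601 samples, against 254, 291 and 17 in WT samples. BX324132.5 had 156, 130 and 126 reads in flt1ka601 samples, against 410, 407 and 129 in WT samples. Both were picked for following RNase_MRP, so the place of WT replicate 3 near the mutants comes with the choice. The nearest to the summed Metazoa_SRP copies was CABZ01025394.1 (r = 0.995), with 407, 257 and 256 reads in flt1ka601 samples and 772, 587 and 496 in WT samples. The nearest transcripts of the other classes, with r between 0.990 and 0.999, have no name in the files. With 6 samples in 2 genotypes, high values of r can arise from a difference between genotypes alone, and from taking the highest of 14272. They are given as a description. The size of a change does not enter r. ENSDART00000109526, nearest to RNaseP_nuc, had 199, 159 and 159 reads in flt1ka601 samples, against 205, 182 and 172 in WT samples.

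Of the markers of other tissues, only those that the lists name on this same contrast were followed, so their differences too come with the choice, and the other markers were not analysed here. Of 6 erythrocyte genes 4 are named (hbbe1.1, hbbe1.2, hbbe2 and alas2), and their summed level was 653 to 993 CPM in flt1ka601 samples and 258 to 291 CPM in WT samples. Of 4 muscle genes 2 are named, ckma and actc1b, and their summed level was 7443 to 9494 CPM in flt1ka601 samples and 18353 to 23151 CPM in WT samples. Of 6 genes of the exocrine pancreas 1 is named, amy2a, at 4.01 to 22.2 CPM in flt1ka601 samples and 24.0 to 57.3 CPM in WT samples. Its adjusted p in the edgeR quasi-likelihood test was 0.054, not past the threshold of 0.05, while the named erythrocyte and muscle transcripts were past it. None of the lens, liver, neuron and endothelium genes looked for is named. Over all 54869 transcripts counted, the lists name 424. The part of tissue composition in the levels of the structural RNAs was not tested.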

How the data were processed

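Whole 4 dpf embryos of 2 genotypes were compared (3 samples each; 2 technical replicates per sample share 1 column of the table). The authors aligned reads with TopHat and Bowtie, and HTSeq gave the deposited counts per Ensembl transcript, which are not normalized. The paper names the build GRCz10, while the submitters' processing notes list Zv9 (danRer7), TopHat2 2.0.10, Bowtie2 2.1.0 and HTSeq 0.6.1, so no coordinates are given here. HTSeq's special counters, 83.2% to 84.4% of a column's total, were left out. The authors' deposited lists from DESeq and Cuffdiff hold genotype means, fold changes and p-values, and none of these values was used. The lists supplied identifiers, names and descriptions. Being in them decided which structural RNAs, proteins that work with them and tissue markers were followed. Nothing says whether replicates came from separate clutches.

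Counts were fitted in R 4.3.3 with edgeR 4.0.16: filterByExpr (a minimum count of 10 in 3 samples and 15 in total) left 21029 of 54869 transcripts, TMM scaled the samples, and a quasi-likelihood test of genotype over all 6 samples was adjusted by Benjamini-Hochberg. Each standard error is the size of the log2 fold change over the root of its F, an approximation. The fit was tested on simulated data with known changes. Alternatives were other scalings, no filter or a stricter one, DESeq2 1.42.0, a block for the replicate number, and fits without each sample. Every member of the rule is named; the nearest transcripts are the 3 with the highest r per class. Members and lists were chosen with earlier results of these data known. The level of flt1 itself was not analysed here, since no identifier in the files carries its name.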

Additional observations from a re-analysis of the deposited data

How the results depend on the processing

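The fit called 2052 of all transcripts and 20 of the 20 members fitted. The members were chosen on this contrast, so their calls are a description under every setting. With each sample left out in turn it called between 717 and 2789 of all transcripts and between 16 and 21 members. The low counts over all transcripts came without WT replicate 2 (1094) and without flt1ka601 replicate 1, 2 or 3 (836, 717 and 894). Among the members, RNase_MRP was not called without flt1ka601 replicate 1, 2 or 3, U1 ENSDART00000115976 without flt1ka601 replicate 1 or 2 or WT replicate 2, and U3 ENSDART00000118424 and U8 without flt1ka601 replicate 2 or 3. SNORD65 was called in 1 of the 6 fits, the one without WT replicate 3, and the other 15 fitted members in all 6. The log2 ratios of the 9 class sums and the log2 fold changes of the 20 members kept their direction under every alternative run. Their size did move, in some members by more than the standard error. RNaseP_nuc went from -2.96 (standard error 0.27) to -2.62 without WT replicate 3. U8 went from 1.58 (standard error 0.33) to 1.97 without WT replicate 2. For RNase_MRP, leaving out 1 sample could not turn the direction, since a high WT sample always stayed in. In the other fitted members the genotypes do not overlap, so leaving out 1 sample could hardly turn theirs. The kept direction in those fits is therefore no test. With samples scaled by total counts, 83.1% of all calls were higher in flt1ka601, against 55.8% with TMM, and the median of all log2 fold changes moved to 0.12. No member changed side. With total counts the Metazoa_SRP copies ENSDART00000121583, ENSDART00000129137 and ENSDART00000130998 fell under 2-fold, with log2 fold changes of -0.889, -0.949 and -0.924. DESeq2's Wald test called 1525 of all transcripts and all 20 members. Without a filter 21 of 21 members were called, and with at least 10 counts in every sample 18 of 18, since RNase_MRP and the 5S_rRNA transcript then dropped out. With the replicate number as a block, 2352 transcripts and the same 20 members were called. Deviations of samples that share a number correlated weakly (r = 0.077, 0.022 and 0.064 over transcripts), although each sample correlated best with its own number. The block also called more transcripts than the fit without it (2352 against 2052). Whether the numbers pair the samples was not settled by these values, and the main fit did not pair them. Depth limits the U1 transcripts, U8, SNORD65 and the 5S_rRNA transcript most, which stood on 0 to 68 reads per sample.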

Other observations

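WT replicate 3 stood apart from the other WT samples in more transcripts than RNase_MRP and ENSDART00000119007. With 0.1 CPM added, 6 of 21029 transcripts had 1 WT sample at least 20-fold below the next, and 9 had 1 WT sample at least 20-fold above the next. In all 15 the sample apart was WT replicate 3. Among the 6 low ones was uqcrfs1, a subunit of complex III of the respiratory chain, with 15, 129 and 68 reads in flt1ka601 samples, against 435, 362 and 0 in WT samples. ENSDART00000102938 had 168, 262 and 262 reads in flt1ka601 samples, against 358, 281 and 0 in WT samples, so that every mutant there was above WT replicate 3. Among the 9 high ones, H2AFY (13 of 16) had 350, 341 and 286 reads in flt1ka601 samples, against 8, 3 and 173 in WT samples. In 8 of these 9, all but ENSDART00000119007, the flt1ka601 samples lay above both low WT samples. These transcripts were chosen after their values were seen.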
